A study of Mus musculus with 12 samples.

Results

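The DNA replication machinery was followed through 44 genes in small intestinal organoids of the mouse, epithelial cultures grown from crypts in a basement membrane extract. The members were listed by symbol, with earlier results of these data known, and all 44 were found among the 55335 entries of each count table. They cover origin licensing, the MCM helicase and its activation, the polymerases and primase, the sliding clamp and its loader, single-strand DNA binding, Okazaki fragment joining, nucleotide supply, chromatin copying and S phase entry. Every member passed the filter on low counts in both comparisons.

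RNA was sequenced in 12 libraries, 3 in each of 4 groups. RANKL organoids were given RANKL, a TNF family cytokine that induces M cells, at 100 ng/mL for 6 days, and ENR control organoids grew in ENR medium (EGF, Noggin and R-spondin). RANKL+CSRM617 organoids received the same cytokine with 40 µM CSRM617, described as an inhibitor of a ONECUT family transcription factor, and were set against RANKL II, the RANKL libraries of the same table. Per the labels, RANKL cultures first had 3 days of 3 µM CHIR99021, which inhibits GSK3, and 1.5 mM valproic acid, which inhibits histone deacetylases, and then 1 day of ENR. The names of the ENR control samples begin with CVENR, which may stand for the same 2 agents, but no label spells it out. All groups came from 1 line of a female Lgr5GFPDTR/+ mouse, whose Lgr5 locus carries a GFP and diphtheria toxin receptor cassette. Replicates are separate differentiation experiments and not separate animals, so the spread behind each p-value holds no variation among animals.

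In licensing, ORC, CDC6 and CDT1 load the MCM2-7 ring onto origins in G1. CDC45 and GINS then complete the helicase in S phase, polymerase alpha-primase starts each strand, and the delta and epsilon polymerases, held by the PCNA clamp, extend it. Many of these genes are activated by E2F factors as cells pass from G1 into S phase, and in the small intestine such cells lie in the crypt.

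Libraries held 5795541 to 14041947 counts, of which the 44 members together took 0.1747% to 0.197% in RANKL, 0.2155% to 0.2936% in ENR control, 0.07228% to 0.07537% in RANKL+CSRM617 and 0.07823% to 0.07921% in RANKL II. Loci that collect ribosomal RNA reads took 9.712% to 10.7% of the counts in RANKL and 21.87% to 35.52% in ENR control, and 15.27% to 15.77% in RANKL+CSRM617 and 6.438% to 6.714% in RANKL II. The 6 defining markers of intestinal epithelium summed to 3319 to 3439 CPM (counts scaled to library size, with TMM factors) in RANKL and 2939 to 3131 in ENR control. They summed to 4944 to 5168 in RANKL+CSRM617 and 4016 to 4067 in RANKL II. The 6 immune markers summed to at most 10.06 CPM and the 6 stromal and endothelial markers to at most 3.198 CPM in any library, with Col1a2 and Kdr at 0 in all 12. In bulk RNA, fewer cells in S phase and less RNA per cell cannot be told apart.

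Replication genes were lower with RANKL than in ENR medium. The summed level of the 44 members was 1502 to 1706 CPM in RANKL libraries (1592 ± 104.1, SD, n = 3) and 2807 to 2965 CPM in ENR control (2875 ± 80.81). Of the 44, 41 fell, none rose and 3 did not pass (Rpa3, Ccne1 and Ccne2), by edgeR's quasi-likelihood test with Benjamini-Hochberg adjusted p under 0.05. The same rule called 28.0% of the 13570 genes tested lower and 28.7% higher. At least 2-fold lower were 14 members, against 6.66% of all genes. The median log2 change of the members was -0.74, beside 0.00 for all genes tested. In 43 members every RANKL library lay below every ENR control library, and in Ccne2 every one lay above; 31.2% of all genes were lower and 32.2% higher in this way. With offsets fitted per library on transcript GC content, 42 members fell, against 25.6% of all genes, 9 by at least 2-fold, against 5.60%, and the median was again -0.74.

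**Figure D1:**
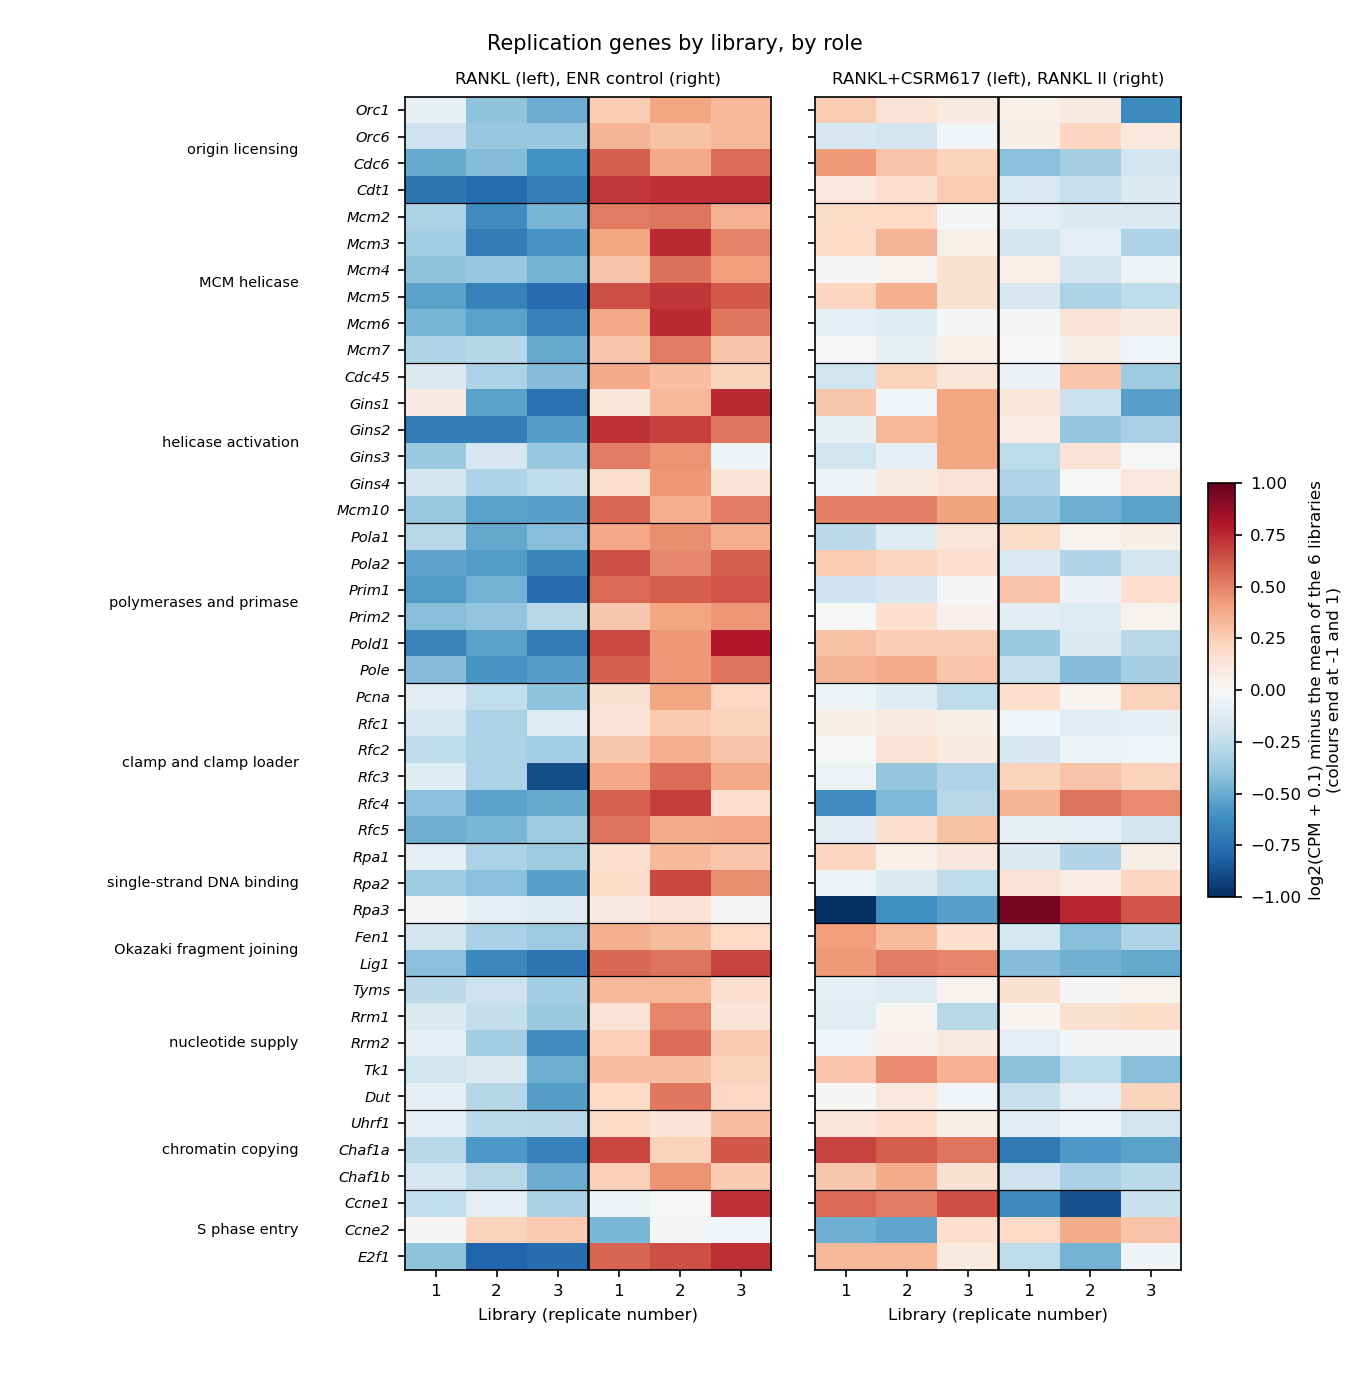
Level of each of the 44 replication genes in every library as log2(CPM + 0.1) minus the mean of the 6 libraries of its table, with genes in rows by role and libraries in columns, RANKL left of ENR control and RANKL+CSRM617 left of RANKL II. The left panel divides between the groups for 43 genes lower and 1 higher with RANKL, while the right panel is mixed, with Rpa3 lower and Chaf1a and Lig1 higher in every RANKL+CSRM617 library.

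The promoters of the members were read for motifs of factors known to act on such genes. Many replication genes are known E2F targets, so the share with a match does not bear on the change with RANKL. The windows run from 250 bases before to 50 after each RefSeq gene start (GRCm38.p6), and 36 of the 44 members had at least 1 window, 41 windows in all. An E2F-type motif (TTTCCCGC, TTTCGCGC, TTTGCCGC or TTTGGCGC, either strand) lay in 13 of the 36 member genes, 36.1%, against 2.60% of 27025 genes in the whole table and 4.87% of the 9628 that were tested for RANKL. A CCAAT box (CCAAT, either strand) lay in 22 of the 36, 61.1%, against 41.1% of all genes and 43.4% of those tested. The SP1-type motif GGGCGG was in 28 of 36, against 68.7% of the tested genes, and the E box CACGTG in 7 of 36, against 11.8%. In Mcm5 and in Mcm6 a TTTCGCGC and a TTTGGCGC match on opposite strands share 4 bases. These are matches of letters and not measured binding sites. Only exact matches were counted, so a member without one, such as E2f1 or Pcna, is not shown to lack a site.

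The promoters of 4 members are printed, with E2F-type matches in capitals: Cdt1 and Uhrf1 hold the lowest and the highest log2 change among members that fell and had a match, Mcm5 holds an overlapping pair, and Pcna, the clamp, holds none.
Cdt1: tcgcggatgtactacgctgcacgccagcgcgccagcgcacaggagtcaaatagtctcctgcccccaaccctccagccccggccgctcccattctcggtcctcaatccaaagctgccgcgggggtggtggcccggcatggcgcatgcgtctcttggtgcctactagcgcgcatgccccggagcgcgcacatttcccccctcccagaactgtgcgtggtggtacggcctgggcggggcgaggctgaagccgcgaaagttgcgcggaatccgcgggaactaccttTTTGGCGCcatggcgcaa
Uhrf1: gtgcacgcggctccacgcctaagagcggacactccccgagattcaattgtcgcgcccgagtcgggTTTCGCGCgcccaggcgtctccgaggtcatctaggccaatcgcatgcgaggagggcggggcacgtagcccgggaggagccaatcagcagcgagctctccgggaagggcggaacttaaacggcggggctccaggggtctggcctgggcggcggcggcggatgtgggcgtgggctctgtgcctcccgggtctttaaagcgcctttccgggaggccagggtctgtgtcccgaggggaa
Mcm5: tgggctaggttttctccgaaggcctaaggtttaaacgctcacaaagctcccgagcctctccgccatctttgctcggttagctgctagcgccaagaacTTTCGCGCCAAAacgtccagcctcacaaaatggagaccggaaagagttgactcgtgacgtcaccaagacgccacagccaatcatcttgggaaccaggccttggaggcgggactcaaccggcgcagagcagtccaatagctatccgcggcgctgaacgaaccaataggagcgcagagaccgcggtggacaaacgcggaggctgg
Pcna: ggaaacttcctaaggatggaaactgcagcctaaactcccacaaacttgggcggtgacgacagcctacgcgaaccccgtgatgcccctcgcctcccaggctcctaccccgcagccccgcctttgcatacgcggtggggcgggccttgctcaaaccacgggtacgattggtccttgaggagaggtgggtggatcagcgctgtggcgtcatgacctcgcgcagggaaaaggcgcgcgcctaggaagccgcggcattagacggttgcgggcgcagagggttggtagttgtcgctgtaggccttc
The Cdt1 window is chr8:122567765-122568064 (plus strand) and its match lies after the gene start. The Uhrf1 window is chr17:56304063-56304362 (plus strand), 1 of 2 for this gene. The Mcm5 window is chr8:75109259-75109558 (plus strand), with 3 CCAAT boxes, and the Pcna window is chr2:132253131-132253430 (minus strand), with 1.

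**Figure D2:**
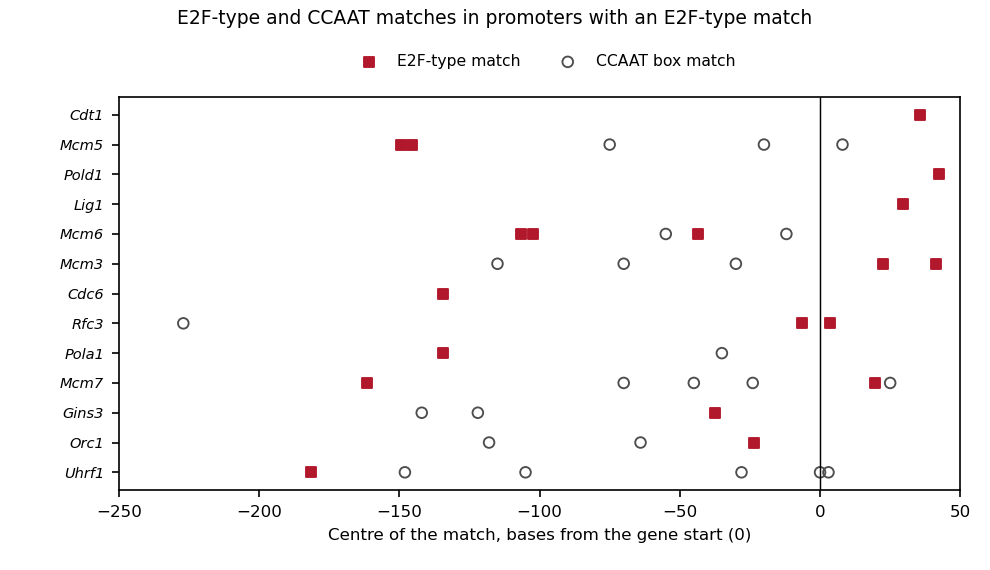
Position of E2F-type matches (filled squares) and CCAAT boxes (open circles) in the promoters of the 13 members with an E2F-type match, in bases from the gene start, with genes ordered from the lowest log2 change with RANKL at the top. Of 19 E2F-type matches, 11 lay within 100 bases of the start; where a gene has 2 windows, matches of both are drawn.

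The 13 members with an E2F-type match all fell with RANKL, with log2 changes of -1.45 to -0.42 and a median of -1.02. So did 41 of all 44 members and 28.0% of all genes tested. Of the 23 members with a window and no such match 21 fell, with a median of -0.64. No test was made of the difference. For RANKL+CSRM617 the medians were 0.33 with a match and 0.14 without. The medians of both comparisons are of the main test. Changes there varied with transcript GC content over all genes (Spearman's rho 0.588 for CSRM617 and -0.324 for RANKL). The split was not repeated with GC offsets, so these medians do not show a difference tied to the motif.

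Origin licensing held the lowest change of all. Cdt1, which brings the MCM ring to the origin, had 31.1, 29.95 and 31.96 CPM in RANKL, against 83.5, 85.0 and 85.7 CPM in ENR control. The 3 values of each group lay close together and far from the other group, and the log2 change was -1.45 (SE 0.0872, edgeR adjusted p = 1.37e-09). Cdc6, its partner in loading, had 15.8, 16.6 and 14.8 CPM in RANKL and 34.2, 29.2 and 33.1 CPM in ENR control, a change of -1.02 (SE 0.117). Orc1 (-0.64) and Orc6 (-0.64), the ORC subunits among the members, fell less.

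All 6 subunits of the MCM ring fell, by log2 changes of -1.31 to -0.73. Mcm5 had 60.6, 54.8 and 51.9 CPM in RANKL and 137.3, 144.2 and 134.6 CPM in ENR control (-1.31, SE 0.0867, edgeR adjusted p = 4.14e-09). Mcm6 had 103.8, 98.9 and 89.5 CPM in RANKL and 187.6, 241 and 208.2 CPM in ENR control (-1.12). Mcm3 changed by -1.09, Mcm2 by -0.93, Mcm4 by -0.85 and Mcm7 by -0.73, so the subunits of 1 ring did not change by 1 factor on this scale. Their summed level was 396 to 450.5 CPM in RANKL and 792 to 926.8 CPM in ENR control.

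The genes that turn the loaded ring into a moving helicase also fell, 6 of 6. Gins2, a GINS subunit, had 6.96, 7.01 and 7.72 CPM in RANKL and 18.8, 18.3 and 16.5 CPM in ENR control (-1.31, SE 0.145). Mcm10, which helps the helicase start to unwind, had 37.7, 33.6 and 33.5 CPM in RANKL and 72.8, 62.2 and 69.9 CPM in ENR control (-0.96). Cdc45 changed by -0.60 and Gins4 by -0.52. The other GINS subunits were the least firm: Gins1 (-0.75, edgeR adjusted p = 0.0174) did not pass when any one of RANKL replicate 2, RANKL replicate 3 and ENR control replicate 3 was left out (adjusted p = 0.0706, 0.0707 and 0.0738). Gins3 (-0.66, adjusted p = 0.0169) did not pass without ENR control replicate 1 or 2 or RANKL replicate 1 (adjusted p = 0.0637, 0.0517 and 0.0523). The exons of Gins2 overlap those of Gse1 on the opposite strand over 67.3% of their length, and no source used here gives the strand setting of the counting. Gse1 itself was at -0.20 (edgeR adjusted p = 0.166).

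Polymerase and primase genes had the lowest median of the 10 roles, -1.10. Pold1, the catalytic subunit of polymerase delta, had 43.7, 47.8 and 42.8 CPM in RANKL and 109.1, 93.4 and 120.4 CPM in ENR control (-1.26, SE 0.102). Pole, the catalytic subunit of polymerase epsilon, had 64.4, 57.6 and 59.5 CPM in RANKL and 131.5, 117.7 and 126.8 CPM in ENR control (-1.05). Of the polymerase alpha-primase complex, Prim1 changed by -1.19 and Pola2 by -1.16, while Pola1 (-0.81) and Prim2 (-0.74) fell by less than 2-fold. Pola1, on the X chromosome, has a transcript of 41.47% GC and was at -1.12 with GC offsets.

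The clamp and its loader fell in 6 of 6 genes, with a median of -0.73, beside -1.01 for the MCM ring. Pcna had 50.1, 45.8 and 41.0 CPM in RANKL and 60.1, 71.4 and 62.6 CPM in ENR control (-0.51, SE 0.102, edgeR adjusted p = 0.000544). Its processed copy Pcna-ps2 is 99.23% identical over 781 bases and had 288 counts in the 6 libraries, beside 2277 for Pcna, so reads may have been split between them. Among the loader subunits Rfc4 changed by -1.02, Rfc5 by -0.87, Rfc3 by -0.85, Rfc2 by -0.61 and Rfc1 by -0.41, the mildest change that passed. The single-strand binding protein RPA was uneven: Rpa2 changed by -0.90 and Rpa1 by -0.51, while Rpa3 had 9.65, 9.15 and 8.94 CPM in RANKL and 10.4, 10.8 and 9.82 CPM in ENR control and did not pass (-0.17, edgeR adjusted p = 0.371). With GC offsets Rpa3 did pass (-0.53, adjusted p = 0.00666).

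Lig1, the ligase that seals Okazaki fragments, had 69.8, 59.8 and 56.5 CPM in RANKL and 139, 136.3 and 149.4 CPM in ENR control (-1.19, SE 0.0931). Fen1, the nuclease that trims them, fell by 0.58 on the log2 scale; an annotated gene on the opposite strand, Gm10143, covers 78.8% of its exons. The 5 nucleotide supply genes fell within a narrow band of log2 changes, -0.70 to -0.52, and none reached 2-fold. These were the ribonucleotide reductase subunits Rrm2 (-0.70) and Rrm1 (-0.52), the dUTPase Dut (-0.62), thymidine kinase Tk1 (-0.55, or -0.34 with GC offsets) and thymidylate synthase Tyms (-0.54).

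Among the chromatin copying genes, Chaf1a, the large subunit of the histone chaperone CAF-1, had 51.4, 41.9 and 39.0 CPM in RANKL and 99.1, 73.3 and 96.2 CPM in ENR control (-1.01, SE 0.126). Its partner Chaf1b changed by -0.64, and Uhrf1, which guides maintenance DNA methylation, by -0.42, or -0.25 with GC offsets. Ubxn6 on the opposite strand shares 52.5% of the Chaf1a exons and was at -0.15 (edgeR adjusted p = 0.278). Of the S phase entry genes, the transcription factor E2f1 had 11.1, 8.48 and 8.67 CPM in RANKL and 22.1, 23.1 and 24.7 CPM in ENR control (-1.30, SE 0.142). The cyclin E genes did not pass. Ccne1 had 4.15, 4.63 and 3.93 CPM in RANKL and 4.80, 4.93 and 8.23 CPM in ENR control (-0.45, edgeR adjusted p = 0.122), with 1 ENR control library well above the others. Ccne2 had 7.74, 9.04 and 9.21 CPM in RANKL and 5.57, 7.60 and 7.54 CPM in ENR control (0.32, edgeR adjusted p = 0.154), and its value was -0.34 with GC offsets.

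Per kilobase of the longest transcript, the order of the levels also differed between the groups. In RANKL organoids the highest members were Pcna at 30.1, Mcm7 at 29.4 and Uhrf1 at 28.2 CPM per kb. In ENR control Mcm6 at 48.7, Mcm7 at 48.7 and Pola2 at 48.1 CPM per kb were highest, and these 3 means differed by less than their SDs. The lowest members were Gins3 at 1.59 CPM per kb in RANKL and Ccne2 at 2.30 in ENR control.

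**Figure D3:**
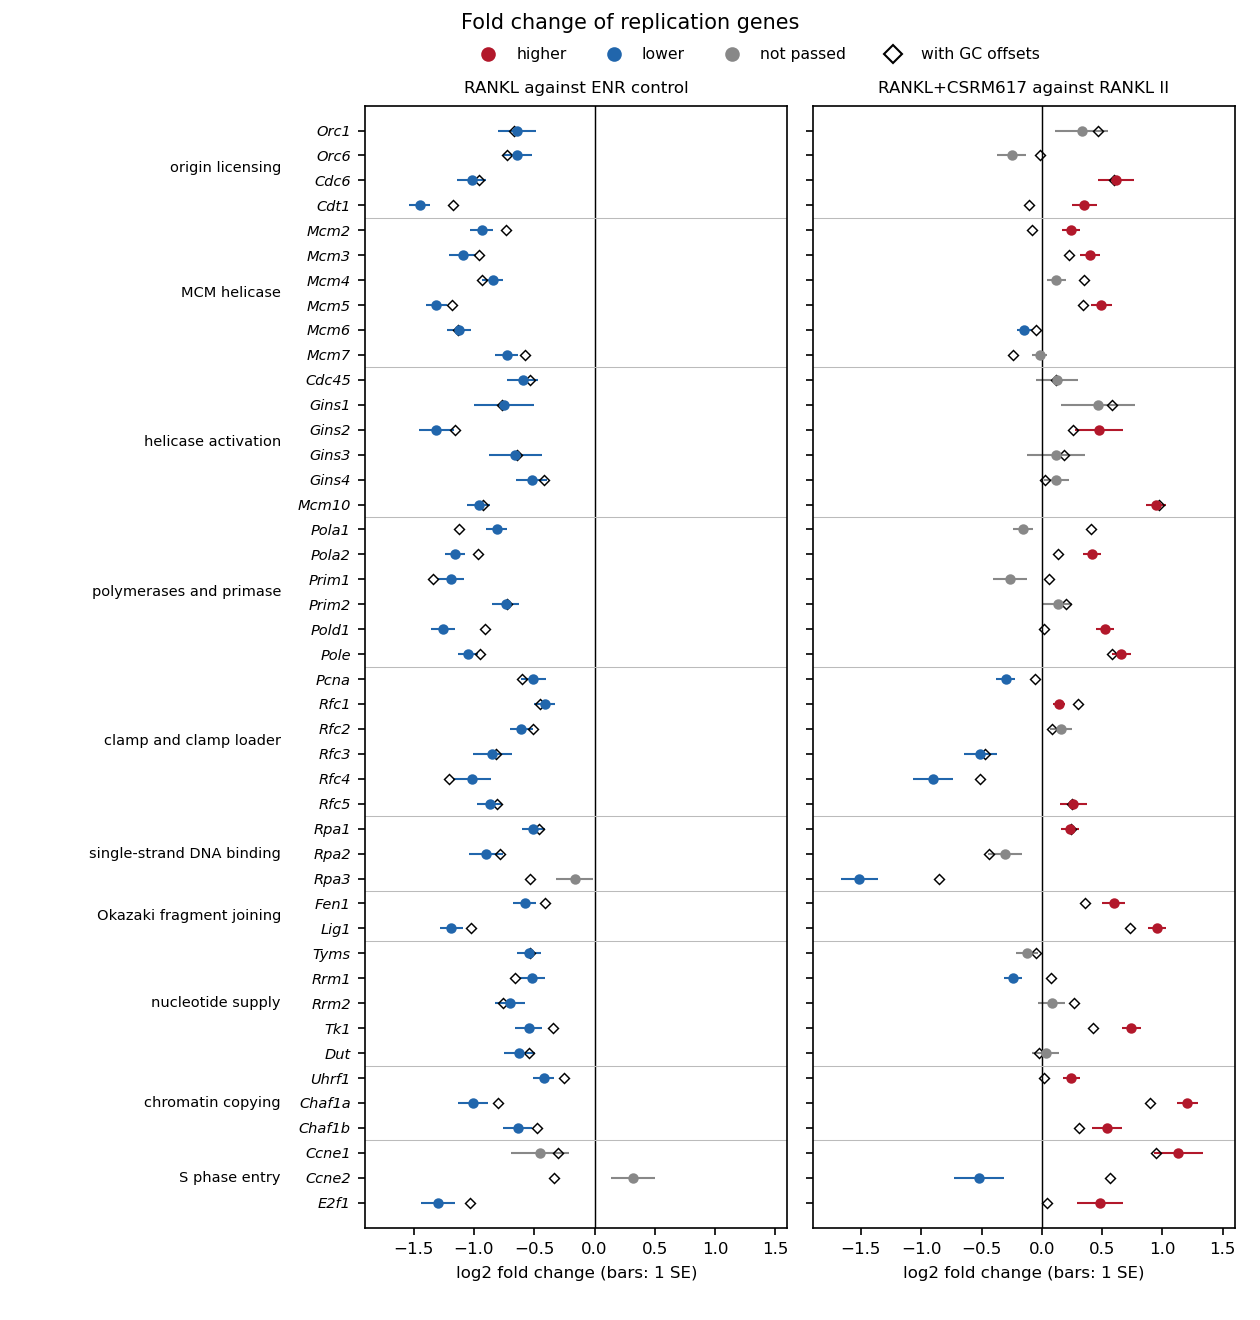
Log2 fold change of each replication gene by role, for RANKL against ENR control (left) and RANKL+CSRM617 against RANKL II (right), with bars of 1 SE, colour by call and open diamonds for the value with GC offsets. On the left 41 genes lie below 0 and pass; on the right 21 pass above 0 and 7 below, and several diamonds lie nearer to 0 than their points.

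With CSRM617 added to RANKL, the members did not move in 1 direction. Their summed level was 818.8 to 838 CPM in RANKL+CSRM617 libraries (825.6 ± 10.81, SD, n = 3) and 703.3 to 713.2 CPM in RANKL II (708.6 ± 5.012). Of the 44 members, 21 rose, 7 fell and 16 did not pass, where the same rule called 35.2% of the 14167 genes tested higher and 36.2% lower. At least 2-fold higher were 2 members, beside 4.92% of all genes, and 1 was at least 2-fold lower, beside 8.18%. The median log2 change was 0.20 for the members and -0.02 for all genes. Groups did not overlap in 27 members, with 19 higher and 8 lower in every RANKL+CSRM617 library, against 36.1% and 37.0% of all genes.

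Log2 changes varied with the GC content of the transcript in both comparisons, and more so with CSRM617. Across 13986 genes, which are not independent replicates, Spearman's rho between log2 change and GC was 0.588 for RANKL+CSRM617 against RANKL II, and it was -0.324 across 13404 genes for RANKL against ENR control. For CSRM617 the median of all genes ran from -0.56 below 45% GC to 0.44 above 55%, and the medians of the members in the same bins, 6 genes each, were -0.39 and 0.50. For RANKL the members' medians were -0.66 and -1.13 in these bins, beside 0.31 and -0.26 for all genes, so members lay below the other genes in each. Offsets fitted per library brought rho to 0.0187 for CSRM617 and -0.00155 for RANKL. With them 18 members rose and 5 fell with CSRM617, beside 32.6% and 30.7% of all genes, and the median was 0.19. None then reached 2-fold in either direction, where 3.73% of all genes were 2-fold higher and 4.05% 2-fold lower. The source of the trend was not tested.

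**Figure D4:**
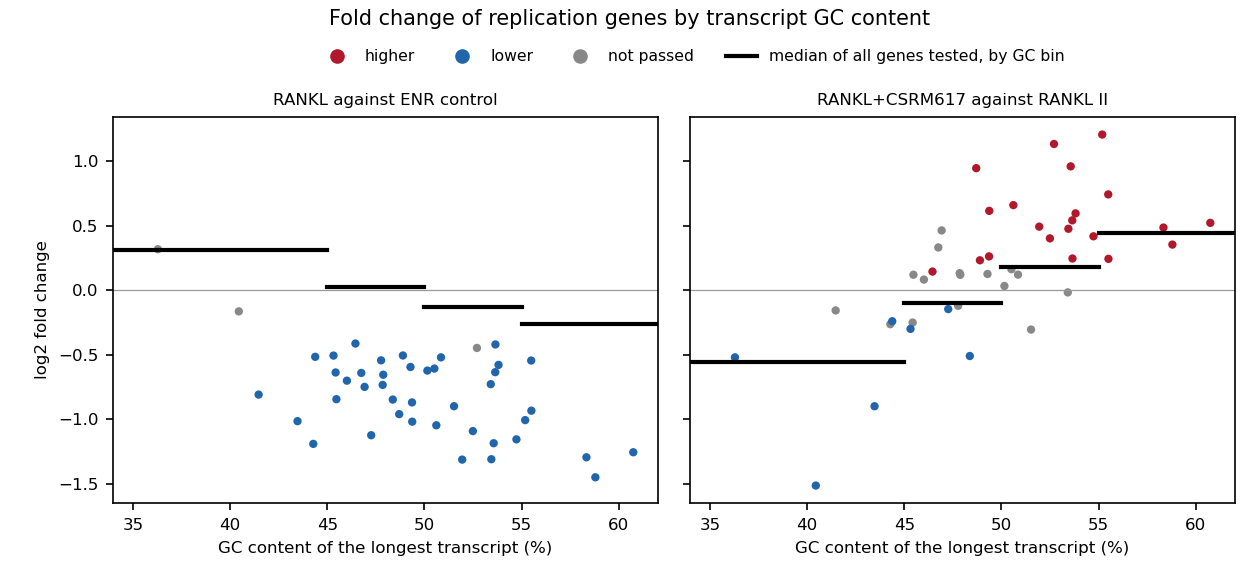
Log2 fold change of each replication gene (points, coloured by call) against the GC content of its longest transcript in percent, with black bars for the median of all genes tested in 4 GC bins. With RANKL the points that pass lie below the bars; with CSRM617 the bars climb from -0.56 to 0.44 and many points follow them.

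A set of 14 members passed in 1 direction in the main test and in every alternative that could be run for RANKL+CSRM617, 11 higher and 3 lower. Of all genes tested 22.3% passed as higher and 19.1% as lower in this way, so the 11 of 44 are near the background and the 3 of 44 are below it. Higher were Chaf1a, Ccne1, Lig1, Mcm10, Tk1, Pole, Cdc6, Fen1, Chaf1b, Mcm5 and Mcm3, and lower were Rpa3, Rfc4 and Rfc3. Chaf1a had 30.9, 29.5 and 28.1 CPM in RANKL+CSRM617 and 11.8, 12.98 and 13.3 CPM in RANKL II. Its log2 change was 1.21 (SE 0.0862, edgeR adjusted p = 1.5e-16), or 0.90 with GC offsets, and Ubxn6 on the other strand was at 0.27 (edgeR adjusted p = 0.000367). Chaf1b, the other CAF-1 subunit, rose by 0.54, or 0.31 with GC offsets.

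Both Okazaki fragment genes rose with CSRM617. Lig1 had 33.97, 36.2 and 35.5 CPM in RANKL+CSRM617 and 18.8, 18.1 and 17.7 CPM in RANKL II (0.96, SE 0.0744, edgeR adjusted p = 2.13e-15). Fen1 had 23.5, 21.9 and 19.8 CPM in RANKL+CSRM617 and 15.5, 13.1 and 14.3 CPM in RANKL II (0.59, or 0.35 with GC offsets). Gm10143, which overlaps Fen1, was at 1.23 (edgeR adjusted p = 0.00576), on 53 counts in the 6 libraries, beside 1186 for Fen1. Reads of either gene may have been counted for the other, which was not tested.

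In helicase activation, Mcm10 had 28.1, 28.2 and 26.2 CPM in RANKL+CSRM617 and 15.1, 14.1 and 13.7 CPM in RANKL II (0.94, SE 0.0848, edgeR adjusted p = 1.98e-13), with 0.97 under GC offsets. Gins2 rose (0.47), a call lost under 7 of 15 alternatives, among them each of 4 left-out libraries (RANKL II replicates 2 and 3, RANKL+CSRM617 replicates 2 and 3). Gse1, which overlaps Gins2, was at 0.94 (edgeR adjusted p = 1.17e-24). Cdc45, Gins1, Gins3 and Gins4 did not pass and had log2 changes of 0.12 to 0.46. The loading factor Cdc6 had 7.90, 7.17 and 6.86 CPM in RANKL+CSRM617 and 4.35, 4.64 and 5.13 CPM in RANKL II (0.61, SE 0.149). Cdt1 rose (0.35, edgeR adjusted p = 0.00214) but was at -0.10 with GC offsets (adjusted p = 0.396). Orc1 (0.33) and Orc6 (-0.25) did not pass, though Orc6 passed as lower with the stricter filter, with upper-quartile factors and without RANKL+CSRM617 replicate 3 (adjusted p = 0.0342, 0.0284 and 0.0469).

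The MCM ring gave 3 higher and 1 lower of 6, where 35.2% of all genes tested were called higher and 36.2% lower. Mcm5 (0.49), Mcm3 (0.40) and Mcm2 (0.24) rose, Mcm6 fell (-0.15, edgeR adjusted p = 0.0317) and Mcm4 (0.12) and Mcm7 (-0.02) did not pass. Mcm5 had 22.3, 24.6 and 21.38 CPM in RANKL+CSRM617 and 17.2, 15.4 and 16.1 CPM in RANKL II. With GC offsets Mcm3 was at 0.22, Mcm2 was at -0.08 and did not pass, Mcm4 rose (0.35) and Mcm7 fell (-0.24). Mcm6 lost its call under 9 of 16 alternatives, among them without RANKL II replicate 2 or 3 or RANKL+CSRM617 replicate 1 or 2. The summed level of the ring was 186.4 to 191.4 CPM in RANKL+CSRM617 and 171.5 to 175.1 CPM in RANKL II.

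Among the polymerases, Pole had 29.97, 30.5 and 28.6 CPM in RANKL+CSRM617 and 20.2, 17.5 and 18.7 CPM in RANKL II (0.66, SE 0.0783, or 0.58 with GC offsets). Pold1 had 33.0, 31.9 and 32.02 CPM in RANKL+CSRM617 and 20.8, 24.5 and 22.2 CPM in RANKL II (0.52), but was at 0.01 with GC offsets, its transcript being the most GC-rich of the members at 60.74%. Pola2 (0.42) rose and did not pass with GC offsets (0.13, adjusted p = 0.104). Pola1 (-0.16), Prim1 (-0.26) and Prim2 (0.13) did not pass. With GC offsets Pola1 rose (0.41), but it fell with the stricter filter (-0.19, adjusted p = 0.0445), with upper-quartile factors (-0.20, adjusted p = 0.0303) and without RANKL+CSRM617 replicate 3 (-0.26, adjusted p = 0.0038). Prim1 fell with upper-quartile factors (adjusted p = 0.0484) and without RANKL II replicate 2 (adjusted p = 0.0449).

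Loader, clamp and RPA genes held most of the falls among the members, but their counts lay near the shares of all genes. The clamp and loader gave 2 higher and 3 lower of 6, and RPA 1 and 1 of 3. Of all genes tested 35.2% were called higher and 36.2% lower. Rpa3, the smallest RPA subunit, had 2.60, 3.91 and 4.11 CPM in RANKL+CSRM617 and 11.7, 10.3 and 9.37 CPM in RANKL II. The groups lay far apart (-1.51, SE 0.154, edgeR adjusted p = 7.48e-12), and the change with GC offsets was -0.85. Rfc4 had 3.03, 3.42 and 3.87 CPM in RANKL+CSRM617 and 6.01, 6.90 and 6.57 CPM in RANKL II (-0.90, or -0.51 with GC offsets). Eif4a2, which shares 12.7% of the Rfc4 exons on the opposite strand, was at -1.13 (edgeR adjusted p = 5.14e-15). Rfc3 fell (-0.51), Rfc1 (0.14) and Rfc5 (0.26) rose, and Rfc2 did not pass. Rfc1 was at 0.30 with GC offsets and did not pass by DESeq2 (adjusted p = 0.0633) or with upper-quartile factors (adjusted p = 0.0716). Rfc5 lost its call without any one of RANKL II replicates 1, 2 and 3 or RANKL+CSRM617 replicates 2 and 3 (adjusted p = 0.0519 to 0.201). Pcna had 25.2, 23.9 and 21.9 CPM in RANKL+CSRM617 and 29.3, 26.8 and 30.6 CPM in RANKL II (-0.30, edgeR adjusted p = 0.000575) and did not pass with GC offsets (-0.06, adjusted p = 0.499). Rpa1 rose (0.23), except without RANKL II replicate 2 (adjusted p = 0.0776), and Rpa2 did not pass (-0.31, adjusted p = 0.0501). Rpa2 passed as lower with GC offsets (-0.44, adjusted p = 0.00519), the stricter filter (adjusted p = 0.0299) and upper-quartile factors (adjusted p = 0.0258).

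Of the 5 nucleotide supply genes Tk1 was the 1 that rose, with 29.1, 33.4 and 30.6 CPM in RANKL+CSRM617 and 18.0, 20.2 and 17.9 CPM in RANKL II (0.74, SE 0.0794, edgeR adjusted p = 3.31e-11, or 0.42 with GC offsets). Rrm1 fell (-0.24) but was at 0.08 with GC offsets and did not pass without RANKL+CSRM617 replicate 3 (adjusted p = 0.0661). Tyms, Rrm2 and Dut lay between -0.12 and 0.08 and did not pass; with GC offsets Rrm2 rose (0.27, adjusted p = 0.0265). Uhrf1 rose (0.24) and was at 0.01 with GC offsets.

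The cyclin E genes passed in opposite directions in the main test. Ccne1 had 4.65, 4.48 and 4.92 CPM in RANKL+CSRM617 and 1.97, 1.65 and 2.64 CPM in RANKL II (1.13, SE 0.205, edgeR adjusted p = 4.54e-06). Ccne2 had 2.16, 2.12 and 3.47 CPM in RANKL+CSRM617 and 3.52, 4.02 and 3.76 CPM in RANKL II (-0.52, edgeR adjusted p = 0.0254). Its transcript is the most GC-poor of the members at 36.29%, and with GC offsets the same counts gave 0.57 (adjusted p = 0.0137), the opposite call. Ints8, which shares 17.4% of the Ccne2 exons on the opposite strand, was at -0.50 (edgeR adjusted p = 5.47e-09). Without RANKL II replicate 2 or 3 or RANKL+CSRM617 replicate 1 or 2 the Ccne2 call was lost (adjusted p = 0.0599 to 0.164). E2f1 rose (0.48, edgeR adjusted p = 0.0217), but not with GC offsets (0.04), nor without RANKL II replicate 2 or RANKL+CSRM617 replicate 2 (adjusted p = 0.0993 and 0.066).

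The comparisons share no library, and their tables were tested separately. Set side by side, 20 members fell with RANKL and rose with CSRM617, as did 14.3% of the 13263 genes tested in both, and 5 fell in both, Mcm6, Pcna, Rfc3, Rfc4 and Rrm1, as did 5.62%. With GC offsets 16 members fell and rose in this way, against 10.2% of genes, and 5 fell in both, against 6.65%. Of the 20, 13 were among these 16, and of the 5 Rfc3 and Rfc4 fell in both again. The joint counts of members are high because 41 of the 44 fell with RANKL. Of all genes 3802 fell with RANKL, and 1900 fell and rose in this way, beside 41 and 20 members. With GC offsets these were 3475 and 1356 genes, beside 42 and 16 members. Among genes that fell, members were thus no more often higher with CSRM617 than other genes. In the main test a further 16 members fell with RANKL and did not pass with CSRM617. Rpa3 and Ccne2 did not pass with RANKL and fell with CSRM617, and Ccne1 did not pass with RANKL and rose with CSRM617; whether the effects differ was not tested. RANKL and RANKL II libraries have the same labelled treatment, yet the members summed to 1592 ± 104.1 CPM in RANKL and 708.6 ± 5.012 CPM in RANKL II. Cdt1, for example, averaged 31.0 ± 1.01 CPM in RANKL and 11.6 ± 0.384 CPM in RANKL II, and Rpa3 averaged 9.25 ± 0.367 CPM in RANKL and 10.5 ± 1.18 CPM in RANKL II. The tables were normalised apart, so no test was made between them.

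Other lists of the pathway were read beside the members. For RANKL, 28.0% of all genes tested were called lower and 28.7% higher, shares to set beside the counts of each list. Of 26 further replisome subunits 19 fell and 2 rose with RANKL, with a median log2 change of -0.61. The lowest were the helicase Recql4 (-1.27) and the fork protection gene Timeless (-1.24). The 2 that rose were the ORC subunit Orc4 (1.05, or 0.43 with GC offsets) and Dbf4 (0.36), which activates the origin-firing kinase CDC7. Dbf4 did not pass with GC offsets (0.22, adjusted p = 0.152) or without RANKL replicate 1 or 2 or ENR control replicate 1 (adjusted p = 0.14, 0.0512 and 0.0675). All 4 tested genes of clamp loader variants and cohesion fell, with Chtf18 and Dscc1, of the alternative loader, at -1.11 and -0.88, Atad5 at -0.65 and Esco2 at -0.45, or -1.0 with GC offsets. Of 8 other chromatin copying genes 5 fell, led by the histone chaperone Asf1b (-1.09) and the maintenance methyltransferase Dnmt1 (-1.0), with Ssrp1 (-0.38) and Nasp (-0.30) the mildest. Nasp did not pass without RANKL replicate 2 (adjusted p = 0.106). Of 6 other nucleotide supply genes 4 fell, with Shmt1 at -0.83 and Samhd1 at -0.39, and Rrm2b, the p53-induced reductase subunit, rose (0.53, edgeR adjusted p = 0.0383). The Rrm2b call was lost with GC offsets (0.10, adjusted p = 0.727), with the replicate block (adjusted p = 0.052) and without RANKL replicate 1 or 2 or ENR control replicate 1 or 2 (adjusted p = 0.161, 0.107, 0.102 and 0.0958).

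The control genes upstream of S phase were mixed with RANKL, where 28.0% of all genes tested were called lower and 28.7% higher. Of 14 genes of E2F, RB and cyclin E-CDK2 control 10 fell, led by the atypical E2F repressors E2f8 (-1.46) and E2f7 (-1.05), with Tfdp1 at -0.30, while E2f3 rose (0.38). Among D cyclins and CDK inhibitors 5 of 10 tested genes rose. Cdkn1a, which encodes p21, had 121.6, 108.9 and 91.3 CPM in RANKL and 19.4, 17.1 and 20.3 CPM in ENR control (2.52). Cdkn2b rose by 2.79 and Cdkn2a by 5.26, which had 14.01 to 19.1 CPM in RANKL and 0.384 to 0.457 CPM in ENR control. The G1 cyclin Ccnd1 rose (0.78), whereas Ccnd2 (-0.71) and the inhibitor Cdkn2c (-1.53) fell.

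Of 20 mitotic genes 5 fell with RANKL, near the 28.0% of all genes called lower, none rose, and the median was -0.19. Among the 5 were Aurkb (-0.60), Plk1 (-0.52, or -0.31 with GC offsets), Cdk1 (-0.33) and Ccna2 (-0.28). With GC offsets 9 of the 20 fell, against 25.6% of all genes. Ccna2 did not pass without RANKL replicate 3 or ENR control replicate 2 (adjusted p = 0.195 and 0.131), nor Cdk1 without RANKL replicate 3 (adjusted p = 0.0647). Their summed level was 1480 to 1873 CPM in RANKL and 1849 to 1956 CPM in ENR control, ranges that overlap. Mki67 did not pass (-0.12, edgeR adjusted p = 0.25). All 15 mitotic genes with a promoter window held a CCAAT box and 1 held an E2F-type match. No test of the difference between the lists was made.

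With CSRM617, 16 of the 20 mitotic genes rose and none fell, with a median of 0.80. Of all genes tested 35.2% were called higher and 36.2% lower. Under GC offsets 19 of the 20 rose, against 32.6% of all genes, with a median of 0.83. Mki67 had 311.5, 318.7 and 310.6 CPM in RANKL+CSRM617 and 136.5, 143 and 143.4 CPM in RANKL II (1.15, SE 0.0331, edgeR adjusted p = 1.24e-30). Plk1 (1.29) and Aurkb (1.18) rose by over 2-fold, Top2a (0.52, or 0.92 with GC offsets) and Kif11 (0.32, or 0.82) by less, and Cdk1 did not pass (-0.10, adjusted p = 0.309). The summed level was 883.3 to 895.4 CPM in RANKL+CSRM617 and 501.3 to 509.9 CPM in RANKL II.

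Of all genes tested with CSRM617, 35.2% were called higher and 36.2% lower, or 32.6% and 30.7% with GC offsets. Several counts of the lists below lie near these shares. The other replisome subunits gave 11 higher and 6 lower of 26 with CSRM617, with a median of 0.18. Clspn (1.49), the checkpoint adaptor of the fork, and Recql4 (1.46) were highest, and the ORC subunits Orc4 (-1.37, or -0.33 with GC offsets) and Orc5 (-1.31, or -0.91) lowest. Of the 14 E2F, RB and cyclin E-CDK2 genes 7 rose and 4 fell. E2f2 (1.24) and E2f7 (1.23) rose and E2f5 (-0.70) and Rb1 (-0.52) fell, Rb1 being at 0.07 with GC offsets. Of clamp loader variants and cohesion, Chtf18 rose (1.06, or 0.60 with GC offsets) and Esco2 fell (-0.62, or 0.31 with GC offsets, adjusted p = 0.132). Dnmt1 (0.81) and Asf1b (0.69, DESeq2 adjusted p = 0.0578) rose and Asf1a (-0.87) and Hells (-0.67) fell. With GC offsets Asf1a was at -0.02 (adjusted p = 0.913) and Hells at 0.27, so that 7 of the 8 chromatin copying genes rose and none fell. Of the 6 other nucleotide supply genes 4 fell and 1 rose. Rrm2b (-0.96), Shmt1 (-0.55) and Dtymk (-0.37) fell and Samhd1 rose (0.16). Rrm2b did not pass with GC offsets (-0.19, adjusted p = 0.181), nor Samhd1 without RANKL II replicate 2 (adjusted p = 0.0988). Of 10 D cyclins and CDK inhibitors 3 rose and 5 fell, or 2 and 8 with GC offsets. Cdk6 (-0.85), Cdkn1b (-0.68, or -0.25 with GC offsets) and Ccnd1 (-0.28) fell, and Cdkn2c (1.04, or 0.61) and Cdkn1a (0.41, or 0.14) rose.

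**Figure D5:**
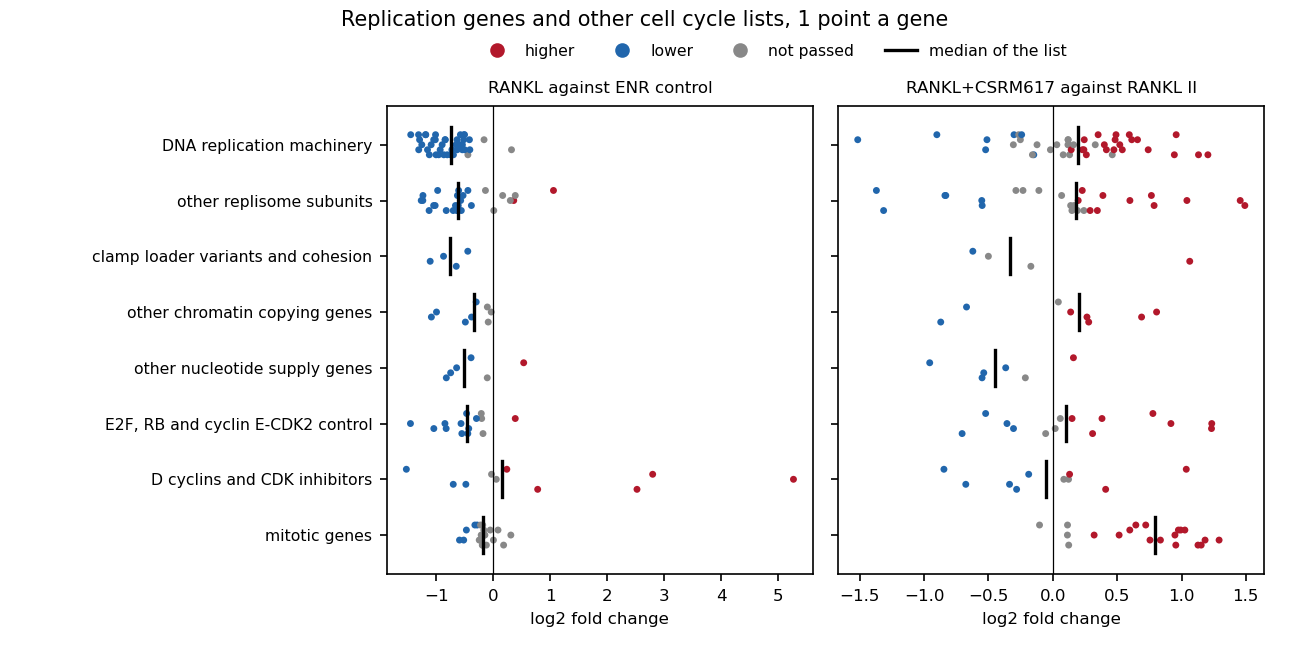
Log2 fold change of every tested gene of the replication machinery and of 7 other cell cycle lists (1 point a gene, coloured by call, with a black bar for the median of the list), for RANKL against ENR control (left) and RANKL+CSRM617 against RANKL II (right). With RANKL the replication genes have a median of -0.74 and the mitotic genes of -0.19; with CSRM617 the medians are 0.20 and 0.80.

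Markers of intestinal cell types moved with both contrasts, and their part in the results was not tested. Of all genes tested, 28.0% were called lower and 28.7% higher with RANKL, and 36.2% and 35.2% with CSRM617. The 5 crypt stem cell markers summed to 618.8 to 960.3 CPM in RANKL and 2038 to 2376 CPM in ENR control, with 3 lower and Ascl2 higher. The 5 mature enterocyte markers summed to 2307 to 3229 CPM in RANKL and 784 to 925.8 CPM in ENR control, with 4 higher and 1 lower, and all 5 M cell markers rose. In RANKL+CSRM617 the stem cell markers summed to 223 to 225.9 CPM, against 176 to 185.6 CPM in RANKL II. Of these 5 markers Lgr5 fell (-0.85), Olfm4 (0.82), Axin2 (0.35) and Smoc2 (0.22) rose and Ascl2 (0.08) did not pass. With GC offsets Olfm4 rose and Lgr5 and Ascl2 fell. Enterocyte markers summed to 8375 to 8684 CPM in RANKL+CSRM617 and 3389 to 3447 CPM in RANKL II, with all 5 higher.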

How the data were processed

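RNA of 12 libraries was depleted of ribosomal RNA and read as 42-bp pairs, per the labels' protocols. The authors deposited 2 tables of raw counts per gene symbol; STAR, HTSeq 0.13.5, DESeq2 1.34.0 and the builds mm10 and GRCm38 are named per the submitters' processing notes, while no source used here gives the strand setting. The authors also deposited 2 normalized tables, found to be on a log2 scale and to hold the 17442 and 18531 genes with at least 10 counts in all. Every column was used.

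Each comparison was tested within its own table with edgeR 4.0.16 (robust quasi-likelihood fit after filterByExpr, with TMM scaling) in R 4.3.3, over all genes, with Benjamini-Hochberg adjusted p under 0.05. The pipeline was also run on simulated counts with far fewer changed genes than were called here. That run does not measure its error rate in these data. CPM are after TMM scaling, with SD over 3 libraries, and depth was 5795541 to 14041947 counts. Alternatives were DESeq2 1.42.0, limma 3.58.1 on the log2 tables, factors from RLE or the upper quartile, a stricter filter (50 counts in 3 libraries) or none, a replicate block, per-library GC offsets, exclusion of ribosomal and mitochondrial genes, and leaving out each library. Annotation and GC content came from GENCODE vM21 (GRCm38) and promoters from RefSeq (GRCm38.p6). Pairs of libraries of 1 group differed by more than counting error, so none was merged, but the excess was uneven. Chi-square per degree of freedom, near 1 for counting error alone, was 5.97 to 36.69 in ENR control and 2.25 to 4.21 in RANKL. It was 1.18 to 5.12 in RANKL+CSRM617 and only 1.10 to 1.43 in RANKL II. The p-values for CSRM617 therefore rest in part on replicates with little spread beyond counting.

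The members, lists and tests were chosen with earlier results of these data known. All members are named; of each other list, the 2 highest and 2 lowest log2 changes past the threshold are, with Cdkn1a, Ccnd1, Mki67 and Cdk1. A gene that this rule names is not reported here.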

Additional observations from a re-analysis of the deposited data

How the results depend on the processing

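For RANKL against ENR control, members called lower numbered 40 with any 1 library left out, beside 41, and the median log2 change of the members was -0.84 to -0.67 over the left-out libraries. By limma on the deposited log2 tables the median was -0.64 and 7 members were at least 2-fold lower, beside 14, and with GC offsets, alone or with the replicate block, 9 were. Over all genes, those at least 2-fold higher and lower were 937 and 555 with the stricter filter and 689 and 416 by limma, beside 1500 and 904. DESeq2 ended the calls of Gins1 and Gins3, and no member's called direction reversed under any alternative for RANKL.

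For RANKL+CSRM617 against RANKL II, members called lower were 4 by DESeq2 and 11 with upper-quartile factors, beside 7. The median log2 change of the members, 0.20, was 0.21 by DESeq2, 0.15 with upper-quartile factors, 0.12 with the stricter filter and by limma, and 0.17 to 0.23 over the left-out libraries. Members at least 2-fold higher were 1 with the stricter filter, 0 by limma and 0 with GC offsets, beside 2, and 1 to 2 over the left-out libraries, with 1 without RANKL II replicate 2; at least 2-fold lower were 0 by limma and with GC offsets, beside 1. Over all genes, 386 and 674 were at least 2-fold higher and lower with the stricter filter and 187 and 218 by limma, beside 697 and 1159, and 574 were lower with GC offsets, or 573 with the replicate block as well. With GC offsets the signs of Cdt1 (-0.10), Mcm2 (-0.08), Rrm1 (0.08), Ccne2 (0.57), Esco2 (0.31), Hells (0.27) and Rb1 (0.07) reversed; the offsets remove the trend with GC by construction.

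The replicate numbers are not stated to pair samples. Correlations of deviations between same-numbered libraries were 0.018, 0.137 and 0.031 for RANKL with ENR control and 0.024, 0.037 and 0.058 for RANKL+CSRM617 with RANKL II. Every library correlated best with its own number in the second set but not in the first. With the replicate block alone 41 members were again lower for RANKL, and 21 higher and 7 lower for RANKL+CSRM617. With the block and GC offsets together the reversed values were -0.10 for Cdt1, -0.08 for Mcm2, 0.07 for Rrm1, 0.56 for Ccne2, 0.32 for Esco2, 0.28 for Hells and 0.07 for Rb1. Taken 1 at a time, the E2F-type variants TTTCCCGC, TTTCGCGC, TTTGCCGC and TTTGGCGC lay in 16.7%, 19.4%, 0% and 13.9% of the member genes, beside 36.1% for any.

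Depth limits the lowest members: Gins1, Gins3 and Ccne1 stayed under 9 CPM in every library.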
